A study of Mus musculus with 27 samples.

Results

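The comparison set hepatic stellate cells (HSCs) of chronic 72 h mice against those of acute 7 d mice, gene by gene, with 4 libraries on each side out of 27 in the series and 18758 genes tested of 53379 in the count table. Chronic 72 h mice had received carbon tetrachloride (CCl4), a toxin that kills hepatocytes, 8 times over 4 weeks and were sampled 72 h after the last dose. Acute 7 d mice had received it a single time and were sampled 7 d later. Both groups were male Balb/c mice given 0.5 µL of CCl4 per g of body weight into the peritoneum, and neither carried an engineered allele. Acute mice, like the uninjected healthy controls, were 10 to 12 weeks old, and chronic mice were 8 to 10 weeks old at the first dose. The number of doses, the time since the last dose and the age at the start therefore differ together and cannot be told apart here. HSCs were sorted from perfused livers by the ultraviolet fluorescence of their retinoid and were not cultured, so cells that had lost their retinoid could have been missed in either group. Each repeat is an individual experiment by the study's methods. A library is a bulk sample in which fewer cells of a type and less RNA per cell cannot be told apart.

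HSCs are the pericytes of the liver sinusoid and hold most of the retinoid of the body. After injury they leave quiescence, contract, divide and lay down fibrillar collagen, and once the injury ends they return part of the way to quiescence. The study described HSCs 3 d after chronic injury and 7 d after acute injury as resembling each other, and the question here was how far that held for single genes and which genes differed. The defining markers of HSCs were present in all 8 libraries. Lrat, the enzyme that esterifies retinol for storage, stood at 1066 to 2247 counts per 1 M (CPM) in chronic 72 h and 683 to 1803 CPM in acute 7 d libraries. Reln, a secreted glycoprotein, Hand2, a transcription factor of these cells, and Des, the intermediate filament desmin, had log2 differences of 0.00, 0.04 and -0.20 between the groups (adjusted p = 1, 0.986 and 0.797).

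Chronic 72 h libraries held 7.11 M, 6.52 M, 12.6 M and 13 M counts and acute 7 d libraries 11.7 M, 11.6 M, 12.9 M and 13.1 M, so that replicates 1 and 2 of chronic 72 h had fewer counts than any acute 7 d library. Across genes, log2 CPM correlated at 0.934 to 0.947 between libraries of chronic 72 h, at 0.936 to 0.949 between those of acute 7 d and at 0.922 to 0.938 between the groups, where genes are not independent replicates. The spread between replicates of a group was 17.0 to 75.1 times what counting alone gives, so no 2 libraries were copies of each other.

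Few genes differed. A gene was called when the adjusted p of the edgeR quasi-likelihood test was below 0.05 and the change was over 2-fold. Of 18758 genes, 81 were called, which is 0.432%, with 31 (0.165%) higher and 50 (0.267%) lower in chronic 72 h than in acute 7 d. At an unadjusted p below 0.05 there were 1882 genes, and 104 passed the adjusted threshold when no fold was required. The 4 libraries of one group lay wholly apart from the 4 of the other in 1341 genes (7.15%), among them 73 of the 81 called. The pair was chosen for study because its groups were the most alike, so its place among the 21 pairs that the 7 groups form is a description and no finding: it had the fewest called genes, followed by chronic 72 h and chronic 14 d with 169 (0.901%). The largest count was 5067 (27%), between acute 24 h and acute 7 d. The plot of calls over all pairs shows this order.

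**Figure D1:**
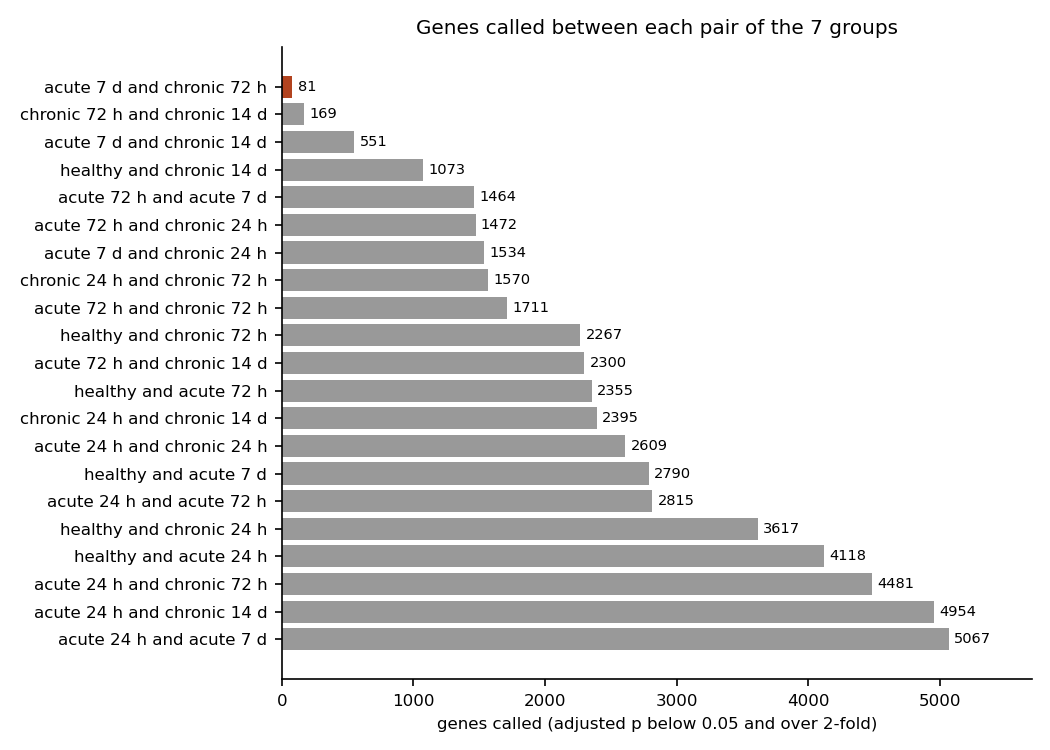
Bars give the number of genes called between each of the 21 pairs of groups (x axis, from 0), with the pair of chronic 72 h and acute 7 d, chosen as the most alike, in red. Its 81 called genes stand at the short end, next to the 169 of chronic 72 h and chronic 14 d, and the longest bar reaches 5067.

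A gene that misses the threshold has not been shown to be alike, so the 95% interval of each log2 fold change was read as well. It lay wholly within 2-fold in 9683 genes (51.6%), against 8912 (47.5%) for chronic 72 h and chronic 14 d. The median size of the difference was 0.25 on the log2 scale and the median half-width of the interval 0.65. Precision followed the level of the gene. With genes divided by mean level into 4 bins of like size, 6.74% of the lowest bin were held within 2-fold, with a median half-width of 1.77, whereas the next bins reached 46.2% and 75.3% and the highest 78.2%, with a median half-width of 0.43 in the last. For most genes of low level these data can therefore neither show a 2-fold difference nor bound it.

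Both groups stood far from healthy HSCs. In chronic 72 h, 2267 genes (12.1%) were called against the 4 healthy libraries, 1479 higher (7.88%) and 788 lower (4.2%), and in acute 7 d 2790 (14.9%), 1732 higher (9.23%) and 1058 lower (5.64%); the healthy libraries serve both counts. Of the 18758 genes tested, 238 were called higher and 256 lower than healthy in both groups while held within 2-fold between them. These counts take genes at a mean log2 CPM of at least 2. Those of them farthest from healthy in both groups are named here as examples. Gpr39, a zinc-sensing receptor, was at 143 to 186 CPM in chronic 72 h and 141 to 177 CPM in acute 7 d libraries, against a mean of 13.9 ± 1.23 CPM in healthy libraries (SD, n = 4). Capn6, a calpain-family protein without protease activity, stood at 555 ± 129 CPM (SD, n = 4) in chronic 72 h and 572 ± 80.1 CPM (SD, n = 4) in acute 7 d against 64.1 CPM in healthy. The libraries of Gpr39 and Capn6 overlapped between the 2 injured groups, and their differences were 0.04 (95% interval -0.32 to 0.39) and -0.04 (-0.65 to 0.56). Small differences are built in here, since only genes held within 2-fold were chosen.

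Col12a1, a collagen that binds to the surface of fibrils, Ncam1, a cell adhesion molecule, Tnfaip2, Dlg2, Dcaf12l1 and the predicted gene Gm7932 were the other 6 that stood highest over healthy in both groups. Col12a1 averaged 34.2 ± 11.9 CPM and 39.4 ± 15.5 CPM (SD, n = 4 each) in chronic 72 h and acute 7 d against 2.59 CPM in healthy. Gm7932 had 3 counts or fewer in every healthy library, which makes it at least 27.4-fold higher in chronic 72 h and at least 28.1-fold higher in acute 7 d. On the other side, Pcsk6, a proprotein convertase, Fcna, a ficolin of the lectin pathway of complement, Vipr1, the receptor of vasoactive intestinal peptide, and Ecm1, an extracellular glycoprotein, were lower than in healthy in both groups. Fcna fell from 2041 ± 345 CPM in healthy to 230 ± 57.1 CPM in chronic 72 h and 207 ± 136 CPM in acute 7 d (SD, n = 4 each). Piezo2, a mechanosensitive channel, Nckap5, Gm37033 and Cadm3 completed the 8 lowest, and Cadm3 shares exons with Ackr1, whose reads cannot be told from its own.

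Genes of stellate cell identity were looked at as a list. Of 41 tested, 0 were called between the groups, where 0.432% of all genes were, so the count says little about the members. In 29 (70.7%) the difference was held within 2-fold, against 51.6% of all genes and 75.3% and 78.2% in the upper bins by level. Without overlap between the groups were 5 higher and 3 lower members, against 7.15% of all genes in either direction. The median difference was 0.08 against 0 over all genes, and -0.13 in higher-depth libraries alone. Against healthy, 19 of them were called lower in chronic 72 h (4.2% of all genes) and 21 in acute 7 d (5.64%). Called higher were 1 and 2 (7.88% and 9.23% of all genes). Hgf, the hepatocyte growth factor that HSCs secrete, was at 441, 482, 596 and 418 CPM in chronic 72 h and 426, 571, 265 and 490 CPM in acute 7 d libraries, which overlap, against a healthy mean of 1169 CPM. Tcf21, a transcription factor of quiescent HSCs that is named because its adjusted p of 0.029 passed while its 1.98-fold difference did not, stood at 1097, 1015, 980 and 1724 CPM in chronic 72 h and 424, 462, 755 and 794 CPM in acute 7 d. Every chronic 72 h library was thus above every acute 7 d library, and the healthy mean of 1043 ± 54.1 CPM (SD, n = 4) fell among the former. Of 30 genes of retinoid and lipid droplet handling 0 were called and 19 (63.3%) were held within 2-fold.

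**Figure D2:**
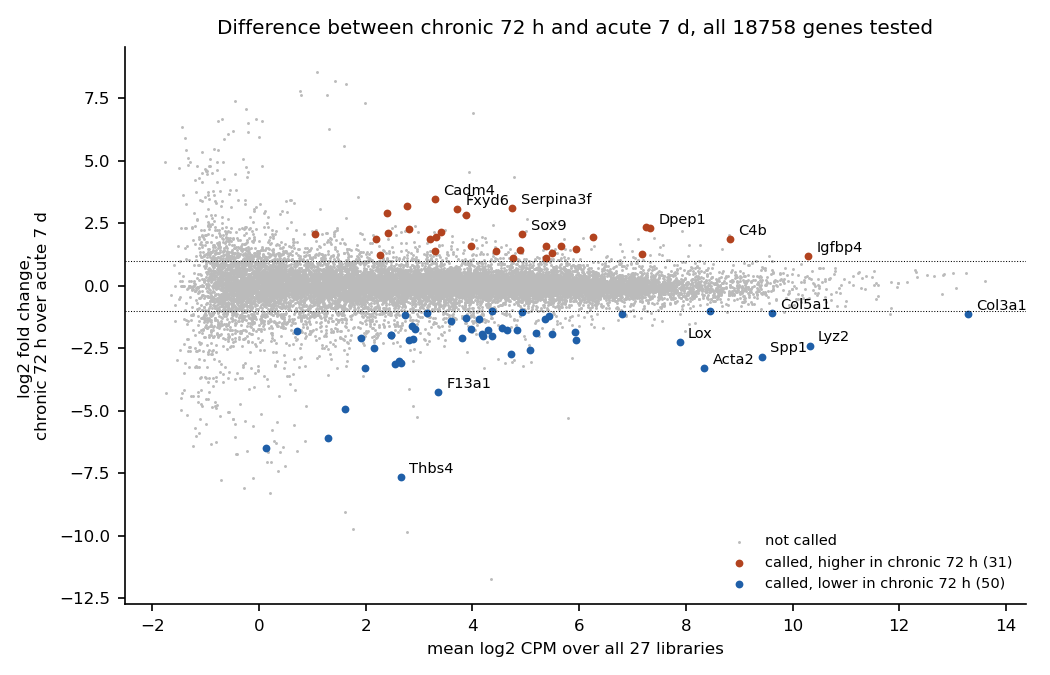
Each point is one of 18758 genes, with its mean log2 CPM over all 27 libraries on the x axis and the log2 fold change of chronic 72 h over acute 7 d on the y axis; red and blue points are the 31 and 50 called genes and dotted lines mark 2-fold. Called genes run from Thbs4 at -7.65 to Cadm4 at 3.46, and large uncalled differences lie mostly at low levels.

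Fibrillar collagens, the bulk of scar matrix, were lower in chronic 72 h for 3 of the 9 members tested, where 0.267% of all genes were lower, and 8 of the 9 estimates were negative, with a median of -1.11 against 0 over all genes. None was higher at the threshold, and none was held within 2-fold. Col3a1 (chromosome 1, 45311538 to 45349706, GRCm38), which forms the type III fibrils of early scar, was at 11470, 8986, 14876 and 10186 CPM in chronic 72 h and at 26672, 27787, 26039 and 19205 CPM in acute 7 d libraries. All 4 values of chronic 72 h lay below all 4 of acute 7 d, and the healthy mean was 2655 ± 72.0 CPM (SD, n = 4), so the gene stood above healthy in both groups. The log2 difference was -1.13 (SE 0.25, adjusted p = 0.0325).

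Col5a1 and Col5a3 encode chains of type V collagen, which nucleates fibrils. Col5a1 was at 600, 502, 657 and 660 CPM in chronic 72 h and 1517, 1626, 1343 and 746 CPM in acute 7 d, a log2 difference of -1.11 (SE 0.18, adjusted p = 0.00707). Col5a3 was at 12.3, 10.7, 14.4 and 6.82 CPM against 48.8, 53.6, 40.4 and 10.2 CPM, where replicate 4 of acute 7 d fell within the range of chronic 72 h (log2 difference -1.79, SE 0.37, adjusted p = 0.0215). In chronic 72 h Col5a1 differed from healthy by -0.20 and Col5a3 was below it by 1.17 on the log2 scale, the latter a called difference. Col1a1 and Col1a2, the chains of type I collagen, are given although neither was called: Col1a1 stood at 4676, 2928, 5299 and 4008 CPM against 10033, 10950, 11989 and 4454 CPM, so that replicate 4 of acute 7 d lay among the chronic 72 h values (log2 difference -1.15, 95% interval -1.85 to -0.44, adjusted p = 0.147). Col1a2 differed by -0.89 (95% interval -1.41 to -0.37, adjusted p = 0.124). The member with a positive estimate, Col27a1, which is named after its value was seen, differed by 0.96 (adjusted p = 0.0829).

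Acute 7 d replicate 4 decided many of these values. It held 29685 CPM summed over the fibrillar collagens, against 47921 to 50612 CPM in the other 3 acute 7 d libraries and 15849 to 26532 CPM in chronic 72 h; healthy libraries held 4229 to 5078 CPM. Without it 7 of the 9 fibrillar collagens were called lower, and without acute 7 d replicate 2 none was, nor in the higher-depth libraries alone or the fit of the 2 groups alone. The call of Col3a1 was lost without any 1 of chronic 72 h replicates 1, 2 and 4 or acute 7 d replicates 1, 2 and 3, where its log2 difference stayed between -1.26 and -1.03. That of Col5a1 was lost without acute 7 d replicate 2 alone, and Col5a3 kept its call in 2 of the 8 fits that left out 1 library.

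Enzymes that process and crosslink collagen went the same way in part. Of 23 tested, 2 were called lower (0.267% of all genes) and 0 higher, 10 (43.5%) were held within 2-fold against 51.6% of all genes, and the median was -0.54. None was called without any 1 of replicates 1 and 2 of either group, or in the higher-depth libraries alone. Lox, lysyl oxidase, which starts the crosslinks between collagen chains, was at 52.9, 46.9, 112 and 103 CPM in chronic 72 h and 482, 445, 376 and 216 CPM in acute 7 d (log2 difference -2.27, SE 0.44, adjusted p = 0.0148). The groups did not overlap, and both were called above the healthy mean of 7.41 CPM. P4ha2, a subunit of the prolyl hydroxylase that stabilises the collagen helix, was at 6.80, 3.29, 8.17 and 12.1 CPM against 25.1, 18.0, 17.2 and 16.8 CPM (log2 difference -1.33, SE 0.30, adjusted p = 0.0395). Neither group was called against healthy for P4ha2. Lox kept its call in 4 of the 8 fits without 1 library, losing it without replicates 1 or 2 of either group, and P4ha2 in 2 of the 8. Bmp1, the protease that trims procollagens and a further member named after its value was seen, passed the adjusted threshold with a 1.71-fold lower level (adjusted p = 0.014).

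Among 49 proteoglycans and matricellular glycoproteins 3 were called lower and 0 higher, against 0.267% and 0.165% of all genes, and 24 (49%) were held within 2-fold, about the 51.6% of all genes, with a median of -0.08. Vcan, the hyaluronan-binding proteoglycan versican, was at 9.87, 6.43, 9.96 and 6.89 CPM in chronic 72 h and 44.7, 32.4, 25.2 and 12.8 CPM in acute 7 d (log2 difference -1.79, adjusted p = 0.0154). Fbln2, fibulin-2, was at 22.7, 23.3, 25.8 and 18.3 CPM against 132, 166, 76.5 and 33.9 CPM (log2 difference -2.18, adjusted p = 0.0305). The groups stood apart in both genes, with replicate 4 of acute 7 d nearest to chronic 72 h each time. Spp1, osteopontin, ran from 199 to 763 CPM, with replicate 4 highest, against 3606, 4775, 2425 and 717 CPM, and here replicate 4 of chronic 72 h exceeded replicate 4 of acute 7 d (log2 difference -2.84, SE 0.44, adjusted p = 0.00417). The predicted gene Gm42793 (chromosome 5, 104435121 to 104436372) overlaps the start of Spp1 (104435118 to 104441050) on the same strand, so its own call, at -3.08, cannot be told from that of Spp1. Macrophages as well as activated HSCs are known to express Spp1, and with the macrophage marker score as a term in the model the difference of Spp1 was -2.76 (edgeR, adjusted p = 0.0115). That score is bound up with the group, since its markers were lower by estimate in chronic 72 h, and the cell source of Spp1 was not tested.

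Thbs4, thrombospondin-4, a matricellular protein known from tendon and muscle, had the lowest log2 fold change of all calls. It lies on chromosome 13 (92751590 to 92794818) and was at 0, 0, 0.156 and 0.470 CPM in chronic 72 h and at 45.9, 59.0, 41.2 and 14.6 CPM in acute 7 d libraries. Its means were 0.213 CPM in acute 72 h and 0.160 CPM in chronic 24 h, and healthy, acute 24 h and chronic 14 d libraries had none of its reads, so that of the 7 groups acute 7 d alone held it at a mean above 1 CPM. Against healthy it was at least 149-fold higher in acute 7 d. The difference between the groups was -7.65 (SE 1.17, adjusted p = 0.00997) and its call was kept in each of the 8 fits that left out 1 library, but not in DESeq2 with its own test, with depth class as a term or in the libraries of higher depth alone.

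Acta2 (chromosome 19, 34241090 to 34255590), the smooth muscle actin by which contractile HSCs are recognised, separated the groups as well. It was at 6.27, 4.00, 2.49 and 32.0 CPM in chronic 72 h and 69.8, 151, 141 and 81.4 CPM in acute 7 d libraries. Replicate 4 of chronic 72 h stood apart from the other 3, yet the groups did not overlap (log2 difference -3.29, SE 0.75, adjusted p = 0.0425). The healthy mean was 3.13 ± 2.69 CPM (SD, n = 4) and that of chronic 24 h libraries 1545 ± 1062 CPM (SD, n = 4). Acta2 was called above healthy in acute 7 d and not in chronic 72 h. The call was lost without any 1 of replicates 1, 2 and 3 of either group, with log2 differences from -4.72 to -2.93 over the fits that left out 1 library. The other 24 of the 25 contractile and cytoskeletal genes tested were not called, 10 were held within 2-fold, and the median was -0.41. Of all genes 0.432% were called and 51.6% were held within 2-fold.

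Genes of cell division were lower in chronic 72 h for 3 of 48 members, where 0.267% of all genes were lower, 0 were higher, and 8 (16.7%) were held within 2-fold against 51.6% of all genes. The median was -1.51 against 0 over all genes, with 44 of 48 estimates negative. Ccna2, cyclin A2, was at 8.93, 8.00, 9.49 and 14.8 CPM in chronic 72 h and 51.2, 46.8, 31.6 and 12.2 CPM in acute 7 d (log2 difference -1.77, SE 0.39, adjusted p = 0.0305). Tpx2, which nucleates spindle microtubules, was at 7.73, 2.57, 6.93 and 8.30 CPM against 37.8, 29.0, 26.9 and 9.12 CPM (log2 difference -2.0, adjusted p = 0.0344). Racgap1, which sets the plane of cytokinesis, was at 5.07, 3.14, 3.66 and 5.56 CPM against 33.2, 17.8, 17.5 and 5.44 CPM (log2 difference -2.08, adjusted p = 0.0302). In Ccna2 and Racgap1 replicate 4 of acute 7 d fell within the chronic 72 h range, and in Tpx2 it lay just above it.

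Among called genes outside that list, Kif22, a chromosome-moving kinesin, Ckap2l, a spindle protein, Ska3, a kinetochore protein, and E2f1, a transcription factor of the G1 to S step, are also known from the cell cycle; they were picked out after their values were seen. Kif22 was at 2.0, 2.14, 2.10 and 2.59 CPM against 14.6, 13.6, 8.94 and 1.76 CPM, with replicate 4 of acute 7 d below every chronic 72 h library. Ckap2l was at 6.27, 5.29, 5.45 and 6.82 CPM against 34.0, 33.0, 18.7 and 6.21 CPM, so the same replicate again lay inside the chronic 72 h range. Ska3 shares exon bases with Sap18 on the opposite strand, and with no strand stated their reads cannot be told apart.

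The start regions of Racgap1, Kif22 and Ckap2l are printed because genes of mitosis are known to share 2 short promoter elements, the CCAAT box and the cell cycle genes homology region. Each runs 5′ to 3′ on the minus strand from 250 bases before the gene's start to 50 after it, as given by RefSeq on GRCm38.p6, at chr15:99651607-99651906, chr7:127042371-127042670 and chr2:129297163-129297462. Capitals mark matches to CCAAT and to TTTGAA on either strand, which appear as ATTGG and TTCAAA where the match is on the other strand.
Racgap1: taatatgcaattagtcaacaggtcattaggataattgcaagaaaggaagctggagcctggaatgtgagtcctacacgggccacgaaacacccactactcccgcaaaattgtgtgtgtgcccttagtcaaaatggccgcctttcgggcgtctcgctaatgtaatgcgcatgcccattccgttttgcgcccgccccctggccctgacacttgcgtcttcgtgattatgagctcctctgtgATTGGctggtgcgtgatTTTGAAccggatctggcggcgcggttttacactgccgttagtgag
Kif22: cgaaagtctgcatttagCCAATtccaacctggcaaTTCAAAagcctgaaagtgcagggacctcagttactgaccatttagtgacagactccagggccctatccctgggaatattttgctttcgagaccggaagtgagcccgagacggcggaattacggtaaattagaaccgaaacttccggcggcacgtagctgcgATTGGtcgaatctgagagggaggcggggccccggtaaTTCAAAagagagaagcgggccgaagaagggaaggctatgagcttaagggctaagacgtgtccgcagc
Ckap2l: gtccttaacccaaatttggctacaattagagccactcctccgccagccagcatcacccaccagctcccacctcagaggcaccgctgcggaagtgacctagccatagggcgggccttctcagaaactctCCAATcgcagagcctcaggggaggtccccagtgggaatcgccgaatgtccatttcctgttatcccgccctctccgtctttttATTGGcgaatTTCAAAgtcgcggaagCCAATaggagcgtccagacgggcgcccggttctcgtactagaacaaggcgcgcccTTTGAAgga
Racgap1 held 1 match to each element, Kif22 held 2 and 2, and Ckap2l 3 and 2. Of the 48 members of the list 38 had a promoter in the table. CCAAT stood in 78.9% of these and in 37.9% of all 27025 promoters of the same length, and TTTGAA in 52.6% and 18.1%. TTCCCGC, a common form of the E2F site, stood in 13.2% and 4.66%. A match gives letters only and does not show that a factor bound there. Ska3, whose promoter is in the table but is not printed, held 1 match to TTTGAA and none to CCAAT, so the 3 printed regions are those of the 4 examined that held both.

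Summed over the list, acute 7 d libraries held 959, 840, 729 and 447 CPM and chronic 72 h libraries 400, 365, 364 and 442 CPM. Replicate 4 of acute 7 d thus lay next to the chronic 72 h libraries, which fell in or just below the healthy range of 379 to 484 CPM. The acute 72 h libraries, earlier in the same course as acute 7 d, held 1748 to 3167 CPM. Against healthy, 27 of the 48 genes were called higher in acute 7 d (9.23% of all genes) and 1 in chronic 72 h (7.88%). Without acute 7 d replicate 4, 9 members were called lower and 1 higher, whereas none was called lower without any 1 of its replicates 1, 2 and 3 or of chronic 72 h replicates 1 and 3; the median stayed between -1.74 and -1.25. With DESeq2, 16 were called lower and 1 higher, and with the replicate number as a block 0 were called lower.

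Macrophage markers were set beside these differences. All 20 members of the list had negative estimates, 3 were called lower (0.267% of all genes) and 0 higher, and the median was -1.31. None was called lower without any 1 of chronic 72 h replicates 2, 3 and 4 or acute 7 d replicates 2 and 3, or in the higher-depth libraries alone, and of the fits that left out 1 library Lyz2 kept its call in 1, Lyz1 in 2 and Itgam in 3 of 8. Lyz2 (chromosome 10, 117277331 to 117282321), the lysozyme of myeloid cells, was at 934, 1276, 560 and 1342 CPM in chronic 72 h and 3467, 5047, 8584 and 4523 CPM in acute 7 d (log2 difference -2.39, SE 0.51, adjusted p = 0.0294). Its neighbour Lyz1 is a close copy, so reads may be split between them, and it was lower by a like amount (log2 difference -1.88, adjusted p = 0.0294). Itgam, the integrin chain of myeloid cells also called CD11b, was at 2.80, 2.43, 2.26 and 1.57 CPM against 14.6, 26.1, 21.7 and 11.4 CPM (log2 difference -3.03, adjusted p = 0.0171). The libraries of the groups did not overlap in these genes.

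Ccr2, the chemokine receptor of monocytes that enter the liver, was at 21.6, 33.0, 10.4 and 19.1 CPM in chronic 72 h and 118, 186, 107 and 91.7 CPM in acute 7 d (log2 difference -2.59, SE 0.43, adjusted p = 0.00707). With Vcan it made 2 of 14 tested genes of monocytes and monocyte-derived macrophages that were lower (0.267% of all genes). None was higher (0.165%), and the median was -1.05. Vcan is also a member of the proteoglycan list above, so its call is not particular to monocytes. F13a1 (chromosome 13, 36867178 to 37050244), the A chain of clotting factor XIII, which monocytes and macrophages are known to make, was at 2.13, 2.57, 1.25 and 2.98 CPM against 34.4, 77.4, 38.2 and 22.1 CPM. Its difference of -4.27 (SE 0.58, adjusted p = 0.00165) was kept as a call in every alternative, and against healthy it was at least 160-fold higher in acute 7 d and at least 8.29-fold in chronic 72 h. Adgre1, which encodes the macrophage antigen F4/80 and is given as a defining marker, differed by -1.29 (95% interval -2.16 to -0.41, adjusted p = 0.202), and Csf1r by -1.17 (adjusted p = 0.432). Markers of resident Kupffer cells gave no call in 10 tested, where 0.432% of all genes were called. Clec4f, one of them, ranged from 76.5 to 365 CPM in chronic 72 h and from 120 to 787 CPM in acute 7 d.

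Summed over the 20 macrophage markers, chronic 72 h libraries held 1371 to 3625 CPM, acute 7 d libraries 5302 to 13793 CPM and healthy libraries 164 to 604 CPM, and none of the 20 was at or under 3 counts in all 8 libraries. Lyz2 alone held 560 to 1342 CPM of the chronic 72 h sums and 3467 to 8584 CPM of the acute 7 d sums. The distance between the sums therefore rests in large part on this single called gene. Against healthy, 18 of the 20 were called higher in chronic 72 h (7.88% of all genes) and 19 in acute 7 d (9.23%). The sums were higher in acute 7 d, as the plot of summed markers shows. With the macrophage score as a term in the model, chosen after the data were seen, 83 genes were called, 29 higher and 54 lower, and 42 of the 81 kept their call. Thbs4, F13a1, Spp1, Lox, Col3a1 and Col5a1 were among those kept. Acta2 and Col5a3 were among those that lost their call, at log2 differences of -2.87 and -1.80 (adjusted p = 0.133 and 0.0538). Itgam, Lyz2 and Lyz1 lost theirs as well, but they are members of the list that makes the score, so that loss is built in. Under this term 5 fibrillar collagens were called lower. Because all 20 markers were lower by estimate in chronic 72 h, the score is bound up with the group. The cell source of genes that kept or lost a call was not tested.

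**Figure D3:**
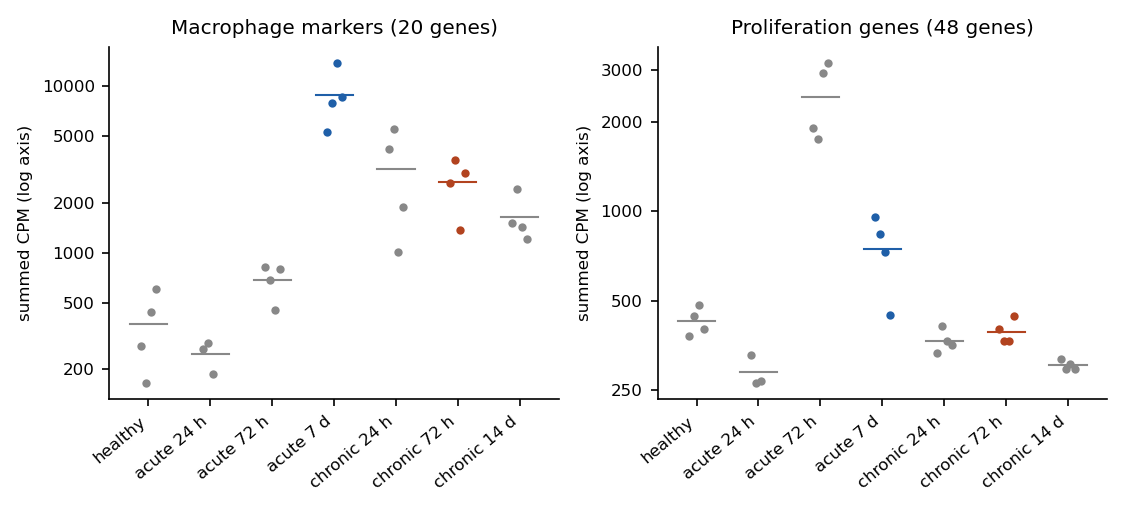
Points are libraries and bars group means of summed CPM, on log axes, for 20 macrophage markers (left) and 48 proliferation genes (right) in the 7 groups. For macrophage markers acute 7 d (blue) has the highest group mean, at 5302 to 13793 CPM, while for proliferation genes it lies between acute 72 h and the remaining groups, with replicate 4 at 447 CPM beside the chronic 72 h libraries (red). Of the acute 7 d macrophage sums, Lyz2 alone gave 3467 to 8584 CPM.

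The remaining genes described at the lower end covered other functions. Slit3, an axon guidance ligand, was at 5.73, 8.57, 8.56 and 5.88 CPM against 65.7, 88.4, 25.5 and 9.96 CPM (log2 difference -2.72, edgeR adjusted p = 0.0126). It was the single call among 49 axon guidance and neural-type genes, where 0.432% of all genes were called. Its call was kept in 6 of the 8 fits that left out 1 library. Pycr1, which makes proline, was at 0.533, 1.43, 1.32 and 2.43 CPM against 8.33, 7.79, 6.84 and 10.3 CPM (log2 difference -2.51, adjusted p = 0.029). Proline is a main residue of collagen. Pycr1 was the single call among 35 genes of the NRF2 and ATF4 responses, and 2 of the 8 fits without 1 library kept that call. It stood above healthy in acute 7 d (called) but not in chronic 72 h, where the mean was 1.43 CPM against 1.60 CPM.

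**Figure D4:**
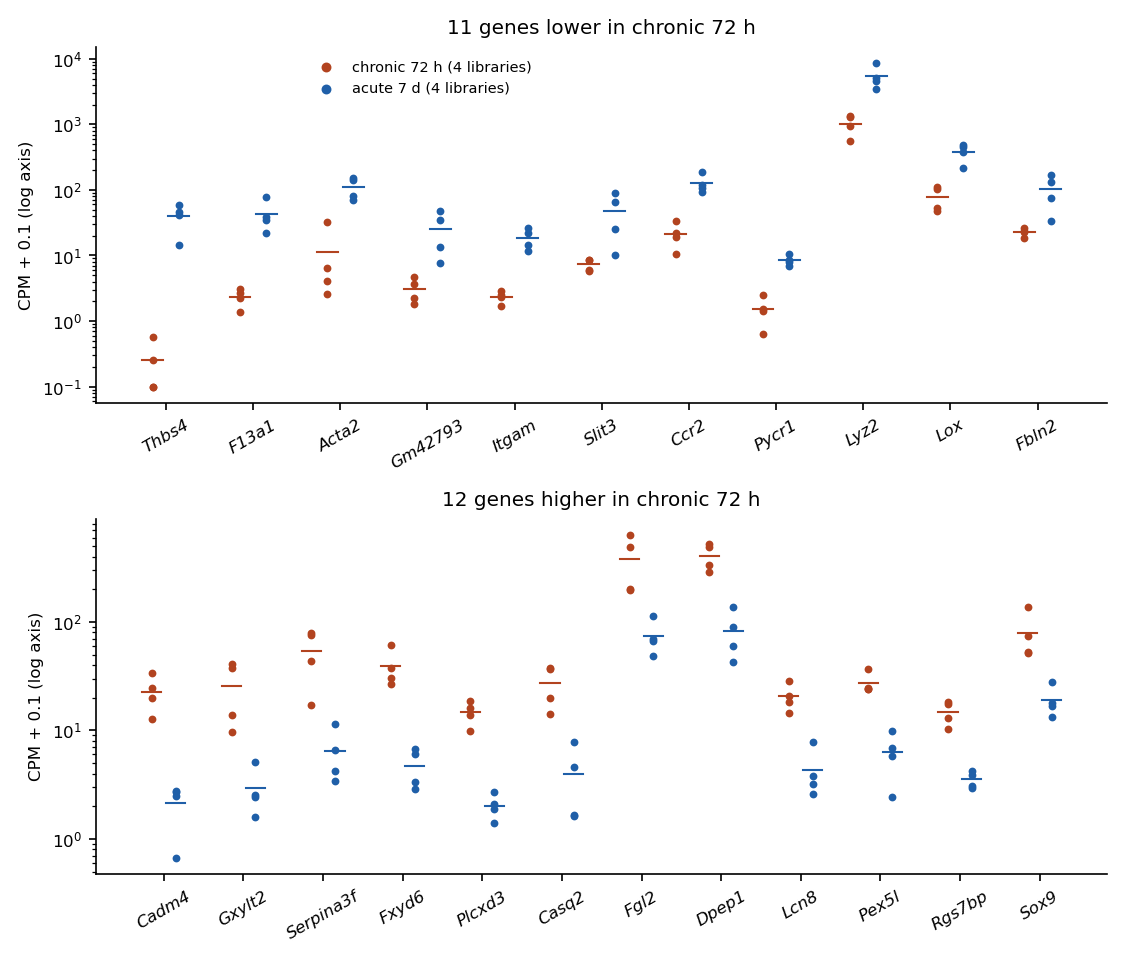
Points are the CPM of single libraries, with 0.1 added for the log axis, and bars the group means, for 11 genes at the lower and 12 at the higher end of the called differences, taken from genes at or above 2 in mean log2 CPM whose groups stand apart. In each gene all red points (chronic 72 h) lie on one side of all blue points (acute 7 d), and Acta2 in chronic 72 h runs from 2.49 to 32.0 CPM.

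Of the 31 genes that were higher in chronic 72 h, 22 had their highest mean of all 7 groups there. Called above healthy were 29 in chronic 72 h (7.88% of all genes) and 16 in acute 7 d (9.23%). Of the 50 lower genes, 25 had their highest mean in acute 7 d. Above healthy were 39 of these in acute 7 d and 18 in chronic 72 h. The genes were chosen by the difference between the groups, so these counts are in part built in. Cadm4 (chromosome 7, 24482023 to 24504539), a cell adhesion molecule of the nectin-like family, was at 19.6, 12.6, 24.7 and 33.7 CPM in chronic 72 h and 2.59, 2.38, 0.563 and 2.68 CPM in acute 7 d (log2 difference 3.46, SE 0.58, adjusted p = 0.00707). Fxyd6 (chromosome 9, 45370185 to 45396159), a regulator of the sodium pump, was at 26.4, 30.6, 37.6 and 61.1 CPM against 3.23, 2.79, 5.96 and 6.59 CPM (log2 difference 3.07, SE 0.38, adjusted p = 0.000193). Dpep1 (chromosome 8, 123186242 to 123201812), a membrane dipeptidase, ran from 286 to 518 CPM against 42.8, 59.5, 90.6 and 137 CPM (log2 difference 2.31, SE 0.28, adjusted p = 0.000193). In each of these the lowest chronic 72 h library was above the highest of acute 7 d.

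Cadm4, Fxyd6 and Dpep1 kept their calls in all 23 alternatives, as did F13a1 and Elfn1 on the lower side and no other called gene. Among these alternatives, the looser adjusted p and the absent fold minimum could lose no call. Cadm4 and Fxyd6 also had means above healthy in the other chronic groups. These were 30.2 and 23.6 CPM in chronic 24 h and 6.29 and 11.8 CPM in chronic 14 d, against 0.599 and 1.61 CPM in healthy. Whether they are particular to chronic injury was not tested. Dpep1 stood at 118 ± 13.1 CPM (SD, n = 4) in healthy libraries, so that it was called higher in chronic 72 h and was not called in acute 7 d. Elfn1, a synaptic adhesion protein named because it was kept throughout, was at 0.800, 0.571, 0.856 and 0.470 CPM in chronic 72 h and 8.17, 9.43, 4.11 and 5.21 CPM in acute 7 d, and in chronic 72 h it was called below healthy.

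Sox9, a transcription factor of chondrocytes, bile duct cells and activated HSCs, was at 51.1, 53.1, 137 and 73.4 CPM in chronic 72 h and 16.7, 17.6, 13.1 and 28.0 CPM in acute 7 d (log2 difference 2.06, SE 0.38, adjusted p = 0.0112). The bile duct markers Krt19, Krt7 and Epcam were at most 5.57, 1.18 and 1.40 CPM in chronic 72 h and 6.90, 1.84 and 3.76 CPM in acute 7 d. Summed CPM of the cholangiocyte list were 355 to 958 in chronic 72 h and 824 to 4857 in acute 7 d. Spp1 alone held 199 to 763 and 717 to 4775 CPM of these sums, so they say little about bile duct cells. Of the 14 members tested, Sox9 included, 10 had positive and 4 negative estimates, with a median of 0.56. Cldn3, a further member, ran from 30.8 to 42.9 CPM in chronic 72 h and from 15.4 to 32.3 CPM in acute 7 d. Sox9 lost its call without chronic 72 h replicate 3 or any 1 of acute 7 d replicates 1, 2 and 3, with log2 differences of 1.67 to 2.32 over the 8 fits.

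The rest of the 12 highest were Gxylt2, a xylosyltransferase, Serpina3f, a serine protease inhibitor, Plcxd3, Casq2, the calcium buffer calsequestrin-2, Fgl2, a fibrinogen-like protein, Lcn8, Pex5l and Rgs7bp. Fgl2 was at 195, 203, 635 and 486 CPM in chronic 72 h and 48.8, 69.6, 66.9 and 113 CPM in acute 7 d, with replicates 1 and 2 of chronic 72 h at about the same low level (log2 difference 2.35, adjusted p = 0.0126). Gxylt2 showed the same division, at 13.7, 9.57, 37.7 and 40.8 CPM against 2.43, 1.48, 2.33 and 5.06 CPM (log2 difference 3.17, adjusted p = 0.029). In chronic 72 h these replicates are the pair of lower depth, and what part depth has in the division was not tested. Serpina3f, which has close relatives in the genome, went the other way, at 79.6, 74.9, 17.0 and 43.9 CPM against 4.12, 3.28, 6.52 and 11.3 CPM (log2 difference 3.09, adjusted p = 0.0106).

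C4b, a complement component, was at 912, 1051, 1474 and 545 CPM in chronic 72 h and 228, 303, 214 and 360 CPM in acute 7 d (log2 difference 1.85, SE 0.30, adjusted p = 0.00707), the single call among 28 complement genes, where 0.432% of all genes were called. Its near copy C4a stands nearby, so reads may be shared. Cx3cl1, the chemokine fractalkine, was at 209, 160, 264 and 257 CPM against 59.4, 93.4, 116 and 98.6 CPM (log2 difference 1.27, SE 0.22, adjusted p = 0.00707). It was the one member higher among 44 chemokine and cytokine genes, and Ccr2 the one lower. Outside the lists, Igfbp4, which binds insulin-like growth factors, was at 2469, 2060, 3016 and 3980 CPM against 995, 1289, 1343 and 1417 CPM (log2 difference 1.19, adjusted p = 0.0267) and was picked out after its value was seen. None of these overlapped between the groups, and C4b and Cx3cl1 were kept in all 8 fits without 1 library.

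Ly6a, also called Sca-1, which portal fibroblasts and other mesenchymal progenitors carry, was at 105, 98.9, 131 and 200 CPM in chronic 72 h and 36.7, 29.9, 37.8 and 34.9 CPM in acute 7 d (log2 difference 1.94, SE 0.43, adjusted p = 0.0392). It belongs to a family of near copies, and its call was lost in every fit that left out 1 library, with differences of 1.68 to 2.07. Summed CPM of the mesothelial cell and portal fibroblast list were 1671 to 2851 in chronic 72 h and 1156 to 1488 in acute 7 d, with 6 members higher and 1 lower without overlap among the 19 tested, against 7.15% of all genes in either direction. Fbln2, also on this list, was called lower, and 14 members had positive and 5 negative estimates. Msln, a marker of mesothelium, was at most 0.862 CPM in chronic 72 h and 0.241 CPM in acute 7 d. Other members were detected: Upk3b, Gpm6a and Lrrn4 ran from 2.93 to 7.57, 6.0 to 12.1 and 3.6 to 7.14 CPM in chronic 72 h. In acute 7 d they ran from 0 to 11.5, 0.966 to 18.4 and 0 to 9.73 CPM, which overlaps.

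Most of the lists of signals and responses gave no call, and their medians differed. Of all genes 0.432% were called and 51.6% were held within 2-fold, so a list without a call says little about its members. Of 46 genes of TGF-beta, activin and BMP signalling, the main fibrogenic pathway, 0 were called and 30 (65.2%) were held within 2-fold, at a median of 0.01. Tgfb1, Tgfb2 and Tgfb3 encode its ligands and differed by -0.36, 0.11 and 0.68 (adjusted p = 0.688, 0.964 and 0.325). Of 42 genes of Wnt, hedgehog and Notch signalling 0 were called and 18 (42.9%) were held, and Wnt5a, a non-canonical Wnt ligand, differed by 1.11 (95% interval 0.40 to 1.82, adjusted p = 0.166). The 25 targets of YAP and TAZ had a median of 0.08 with 0 called and 14 (56%) held, and Ccn2, connective tissue growth factor, varied from 35.8 to 766 CPM within chronic 72 h.

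Immediate early genes were mostly higher by estimate and interferon-stimulated genes as well, without calls, where 0.432% of all genes were called. Of 30 immediate early genes 27 had positive estimates, with a median of 0.50, and Fos, a subunit of AP-1, was at 8005, 8886, 7453 and 10314 CPM in chronic 72 h and 5104, 4875, 6773 and 7760 CPM in acute 7 d (log2 difference 0.50, 95% interval 0.16 to 0.84, adjusted p = 0.197). Its groups overlapped, since replicate 4 of acute 7 d exceeded replicate 3 of chronic 72 h. Of 51 interferon-stimulated genes 43 were positive, with a median of 0.39 and 18 (35.3%) held within 2-fold, against 51.6% of all genes. Ifit1 and Ifit3 differed by 0.10 and 0.24. Genes of endoplasmic reticulum folding had a median of -0.28 over 37 members, cholesterol synthesis 0.14 over 28, and p53 targets and senescence -0.10 over 25, all without a call. Circadian clock genes, which depend on the hour of collection, gave no call in 23; Dbp, one of their output genes, ran from 12.9 to 72.1 CPM in chronic 72 h and from 39.8 to 128 CPM in acute 7 d. The plot of list medians gives all lists together.

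**Figure D5:**
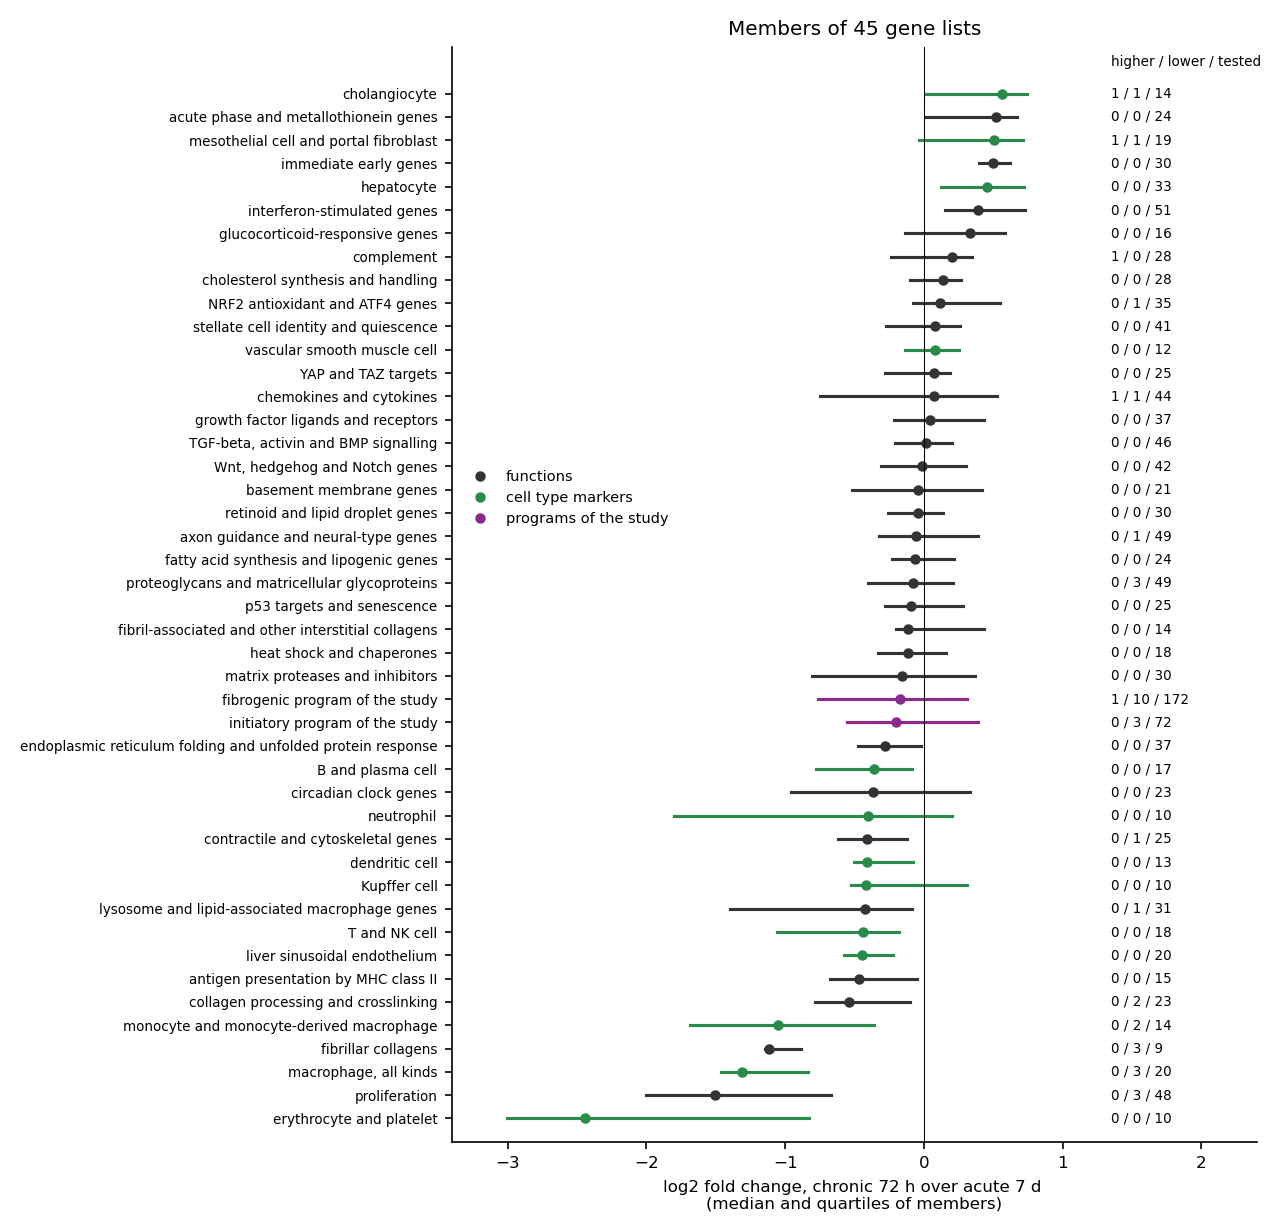
Points are medians and lines quartiles of the log2 fold change of chronic 72 h over acute 7 d among the tested members of each list, sorted by median, and the numbers at the right give members called higher, called lower and tested. Erythrocyte and platelet, proliferation, macrophage and fibrillar collagen genes lie lowest, at medians of -2.44 to -1.11, and the medians of most other lists lie within 0.6 of 0.

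The study defined a fibrogenic program from other libraries of the series (chronic 24 h, chronic 14 d and healthy) and an initiatory program from acute 24 h libraries and cultured cells, and the programs share 39 genes; none of the 8 libraries compared here was used to choose them. Of 172 fibrogenic genes tested 11 were called, against 0.432% of all genes, 10 lower and 1 higher in chronic 72 h, and 45 (26.2%) were held within 2-fold against 51.6% of all genes. The counts moved with the libraries used: 2 were lower and 0 higher without acute 7 d replicate 1 and likewise without replicate 2, 16 lower and 1 higher without replicate 4, 3 lower and 0 higher without chronic 72 h replicate 2, and 1 lower and 2 higher in the higher-depth libraries alone. Against healthy, 98 were called higher in chronic 72 h (7.88% of all genes) and 114 in acute 7 d (9.23%). The same healthy libraries were used to choose the program, so its standing above them is in part built in. Dclk1, a microtubule-associated kinase, was at 31.9, 23.9, 32.4 and 33.6 CPM in chronic 72 h and 163, 144, 88.5 and 40.2 CPM in acute 7 d (log2 difference -1.84, adjusted p = 0.0192). Cdh3, P-cadherin, was at 10.4, 8.86, 12.1 and 13.2 CPM against 47.2, 51.3, 47.3 and 27.5 CPM (log2 difference -1.95, adjusted p = 0.00906). Acta2, Lox, Vcan, Fbln2, Slit3, Bcat1, Tnfrsf23 and Lpin3 made up the rest of the lower members.

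Hk2, hexokinase 2, the entry enzyme of glycolysis, was the fibrogenic gene that was higher in chronic 72 h, at 25.9, 43.9, 40.4 and 40 CPM against 16.3, 19.1, 17.4 and 17.9 CPM (log2 difference 1.09, adjusted p = 0.0173). The median over the program was -0.17, and it became 0.06 when libraries of higher depth were fitted alone and 0.09 with depth class as a term, so its sign followed the depth setting. Of 72 initiatory genes 3 were lower (Vcan, Lpin3 and Bcat1), against 0.267% of all genes, and 0 were higher. In 23 (31.9%) the difference was held within 2-fold, against 51.6% of all genes, and the median was -0.20. Bcat1, which starts the breakdown of branched-chain amino acids, was at 0.267, 0.286, 0.311 and 0 CPM in chronic 72 h and 11.4, 7.87, 6.36 and 0.690 CPM in acute 7 d (log2 difference -4.92, adjusted p = 0.0215).

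Markers of other cells gave no calls for hepatocytes, sinusoidal endothelium, neutrophils, lymphocytes, dendritic cells, vascular smooth muscle or erythrocytes and platelets. Since 0.432% of all genes were called, these counts say little about the members. Hepatocyte markers summed to 7024 to 10629 CPM in chronic 72 h and 5285 to 8758 CPM in acute 7 d, with 30 of 33 estimates positive and a median of 0.46. Alb, albumin, was at 705, 779, 585 and 1283 CPM against 976, 584, 477 and 592 CPM, which overlap. Erythrocyte and platelet genes had 9 of 10 negative estimates, a median of -2.44 and sums of 47.6 to 80.3 CPM against 104 to 311 CPM. The globin gene Hbb-bs was at 0.933, 1.43, 6.54 and 16.5 CPM in chronic 72 h and 105, 57.2, 12.8 and 27.9 CPM in acute 7 d (log2 difference -2.95, 95% interval -5.07 to -0.84, adjusted p = 0.237). The part of this RNA in other differences was not tested, apart from the fit with a hepatocyte score, in which 66 of the 81 calls were kept.

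The calls rested on single libraries to differing degrees. All 81 kept their direction in each of the 23 alternatives, and 80 were also called by DESeq2 with its own test. The looser adjusted p, the absent fold minimum and the 1.5-fold test reuse the main fit, so no direction could change there. In other fits most calls were lost: 24 of the 81 were kept in the higher-depth libraries alone, 25 in the fit of the 2 groups alone, 12 in the test against a 1.5-fold minimum and 16 in all 8 fits that left out 1 library. Without acute 7 d replicate 2, 18 of the 81 were kept, without its replicate 1, 28, and without chronic 72 h replicate 3, 29; without acute 7 d replicate 4, 74 were kept and 122 were called in all. In 32 of the 50 lower genes replicate 4 was the acute 7 d library nearest to chronic 72 h, and in 18 of the 31 higher genes as well.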

How the data were processed

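RNA of sorted HSCs was sequenced as single-end 75 bp reads by the authors, who aligned them with STAR to GRCm38 and used StringTie; versions, annotation release and strand setting are not given in the sources used here. The deposited values are raw read counts per gene, with no normalization, for 27 libraries in 7 groups. Of 53379 genes, 16198 had no count, 18423 failed the filter on low counts (filterByExpr) and 18758 were tested. Names came from GENCODE M21, which held 53274 of the identifiers.

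One edgeR 4.0.16 quasi-likelihood model (robust, TMM scaling, 7 group means) was fitted to all 27 libraries in R 4.3.3, with Benjamini-Hochberg adjustment over all genes. CPM use TMM-scaled library sizes, and intervals are 95% per gene, not adjusted over genes. Named genes were the 12 highest and 12 lowest called without overlap among genes at or above 2 in mean log2 CPM, the called members of each list or else members from its head, and the 8 highest and 8 lowest of those shared against healthy; others are marked as picked after their values were seen. Some items are not reported here. A bound on a fold uses 3 counts per library as floor. Gene lists and members were chosen with earlier results of these data known. Counts of 18281 genes were simulated for chronic 72 h against acute 7 d. The test recovered 68 of 100 genes changed by 1.5 on the log2 scale and 82 of 100 changed by 2.5, with 9 false calls. Changed genes were drawn only from those above a minimum mean CPM, so the rates do not cover genes of the lowest level. All other genes had the same simulated mean in every group. Alternatives covered scaling, filters, the libraries entered, depth, the replicate number, thresholds and DESeq2 1.42.0. Those with marker scores and without acute 24 h were chosen after seeing the data. Reads carried no molecular identifiers, so depth limits cover counting error only.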

Additional observations from a re-analysis of the deposited data

Results flagged for a closer look

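In 14 of 194 groups of 4 libraries examined for named genes, a single library stood apart from the other 3 by more of the group's range than Dixon's critical value at 95% allows; chance alone isolates a library in about 1 of 20 groups. In chronic 72 h, replicate 4 stood apart for Acta2 at 32.0 CPM (others 2.49 to 6.27), Nckap5 at 8.3 CPM (others 22.3 to 23.4), Syt13 at 0.548 CPM, where the others were at 0, and Bcat1 at 0 CPM (others 0.267 to 0.311), the last of them near the level of single reads. Replicate 3 stood apart for Egflam at 33.8 CPM (others 15.4 to 18.3), Trpv2 at 10.3 CPM (others 14.7 to 15.2) and Pex5l at 36.4 CPM (others 24.0 to 24.3), and replicate 2 for St8sia4 at 4.86 CPM (others 3.19 to 3.37).

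In acute 7 d, replicate 4 stood apart for Gpc1 at 83.8 CPM (others 189 to 191), E2f1 at 6.67 CPM (others 11.2 to 12.0) and Cdh3 at 27.5 CPM (others 47.2 to 51.3), each on the side of chronic 72 h. Replicate 1 stood apart for P4ha2 at 25.1 CPM (others 16.8 to 18.0), replicate 3 for Cadm4 at 0.563 CPM (others 2.38 to 2.68) and replicate 2 for Cadm3 at 2.79 CPM (others 2.22 to 2.26). The change against healthy differed between chronic 72 h and acute 7 d in 81 genes, which are the genes called between them by the edgeR quasi-likelihood test.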

How the results depend on the processing

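The 81 calls kept their sign in all 23 alternatives, though those that change only the threshold or the tested minimum reuse the main fit and could not change a sign. Against 31 genes higher and 50 lower in chronic 72 h, depth class as a term gave 65 and 141, an adjusted p below 0.1 gave 58 and 88, a test against a 1.5-fold minimum 6 and 6, and DESeq2 with its own test 99 and 164. No filter left 33 lower, the fit of the 2 groups alone 20 lower and the higher-depth libraries alone 20 lower, with 24, 22 and 26 higher. Fits without 1 library gave 9 to 37 higher and 11 to 85 lower. The share of calls that were higher was 38.3%, and it was 52.4% in the 2 groups alone, 56.5% in the higher-depth libraries and 60% without chronic 72 h replicate 2. The cause of these changes was not tested. Scaling by DESeq2 size factors or library size alone moved the median of all genes by 0.00 and 0.02. The count held within 2-fold ranged from 7890 to 10188.

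Same-numbered libraries of the groups did not deviate together (correlations of deviations -0.02, 0.06, 0.00 and -0.01), so the numbers were not taken to pair them. The fit with the replicate number as a block called 32 higher and 40 lower, with 64 of the 81 kept. Chronic 72 h replicates 1 and 2 held fewer counts than the other 6 libraries, and genes at low counts had wide intervals.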
